A study of Mus musculus with 8 samples.

Results

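The 8 genes described here encode transcription factors that give granulosa cells of the ovary their identity: *Foxl2*, *Wt1*, *Nr5a1*, *Nr5a2*, *Gata4*, *Gata6*, *Runx1* and *Nr0b1*. They were chosen by name, as a set of known factors and with earlier results of these data known, and are 8 of the 45583 gene symbols in the deposited count table. The study asked whether loss of ghrelin-O-acyltransferase (GOAT), the enzyme that acylates the hunger hormone ghrelin and is encoded by *Mboat4*, alters the juvenile mouse ovary. Ovaries of 4 WT and 4 GOAT KO mice of strain C57/Bl6, all 3 weeks old, were sequenced with 1 library per mouse. WT and GOAT KO mice were littermates from crosses of heterozygous parents, and the knockout was not restricted to a cell type. Libraries carry the animal numbers 1118, 1119, 1120 and 1121 (labelled WT) and 1139, 1140, 1141 and 1146 (labelled GOAT KO).

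Granulosa cells surround and nourish the oocyte. Their fate is held by transcription factors that switch on steroid and hormone receptor genes and keep the testis programme silent. FOXL2 is a forkhead factor that represses *Sox9* in the female gonad, and RUNX1 acts beside it in fetal pre-granulosa cells. WT1 is a zinc finger protein needed to form the gonad, GATA4 and GATA6 are zinc finger partners of these factors, and the orphan nuclear receptors NR5A1 (SF-1) and NR5A2 (LRH-1) drive steroidogenic genes. NR0B1 (DAX1) lacks a usual DNA-binding domain and represses NR5A1.

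Counts on genes summed to between 16147216 and 19481798 per library. *Mboat4*, the targeted gene, had 1, 1, 1 and 3 counts in the libraries labelled WT and 5, 7, 7 and 8 in those labelled GOAT KO. All values of the libraries labelled GOAT KO were thus the higher ones (two-sided exact permutation test of CPM, p = 0.0286, the smallest that 4 against 4 allows), which goes against the labels. All 8 counts lie under the minimum count of 10 used to filter low genes, so they rest on very few reads. The paper reports that PCR gave no amplification of *Mboat4* in juvenile GOAT KO ovaries. Every direction given here rests on the labels. Which exons were deleted is not given in the sources used here, so counts outside the deleted exons could remain, and *Mboat4* shares 135 bases with an antisense gene. GOAT KO 1139 stood apart on a scaling plot, at 1.21 on the first axis against -0.473 to 0.171 for the other 7. The study set aside 1 library of each group without naming them in its text. Each comparison is given with all 8 libraries and, where this changed it, with 6 libraries, for which WT 1120 and GOAT KO 1139 were left out here. This pair was taken from earlier work on these data, and the scaling plot put WT 1118 (-0.473 and 0.756 on the axes) and WT 1120 (0.171 and -0.429) at opposite ends of the WT libraries.

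All 8 factors were well above the filter on low counts. Between genes, levels were compared as CPM (counts scaled to a common library size) per kilobase of exon, because longer transcripts collect more reads. *Nr5a2* led with a mean of 158 CPM per kb over the 8 libraries (range 130.3 to 175.5), followed by *Gata4* at 67.7 (56.6 to 91.8) and *Nr5a1* at 51.8 (43.4 to 60.3). *Wt1* averaged 26.2 CPM per kb (19.97 to 35.8), *Foxl2* 15.8 (11.3 to 21.4) and *Gata6* 15.6 (12.8 to 19.1). *Nr0b1*, at 11.4 (6.56 to 15.6), and *Runx1*, at 6.13 (5.09 to 7.28), were the lowest. *Nr5a2* exceeded *Gata4*, and *Nr5a1* exceeded *Wt1*, without overlap of their ranges, whereas the ranges of all other neighbours in this order overlapped. Within single libraries, *Gata4* still exceeded *Nr5a1*, and *Nr0b1* exceeded *Runx1*, in all 8. The other neighbours with overlapping ranges kept their order in 6 or 7 libraries. With the longest annotated transcript as the length in place of the union of exons, 4 of the 8 kept their place, since *Gata6* then passed *Foxl2* and *Runx1* passed *Nr0b1*.

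**Figure D1:**
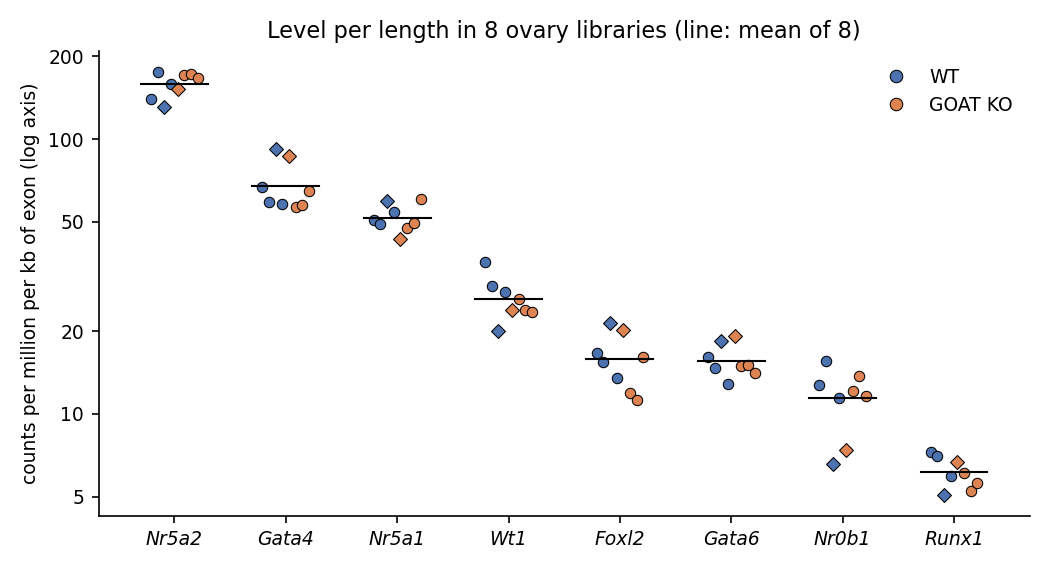
Level of each factor in the 8 ovary libraries, as CPM per kb of exon on a log axis, with blue points for WT, orange points for GOAT KO, diamonds for WT 1120 and GOAT KO 1139, and a line at the mean of 8. *Nr5a2* stands clear of the rest at a mean of 158, and the lower 4 genes form overlapping bands.

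In the GRCm38 genome the single-exon gene *Foxl2* lies on chromosome 9 at 98955288 to 98958543 (plus strand). *Wt1* lies on chromosome 2 at 105126529 to 105173616 (plus strand) and *Nr5a1* on the same chromosome at 38692656 to 38714542 (minus strand). *Nr5a2* lies on chromosome 1 at 136842571 to 136960448 (minus strand), *Gata4* on chromosome 14 at 63198922 to 63271692 (minus strand), *Gata6* on chromosome 18 at 11052064 to 11085635 (plus strand), *Runx1* on chromosome 16 at 92601466 to 92826149 (minus strand) and *Nr0b1* on chromosome X at 86191764 to 86195947 (plus strand). The deposited counts take the whole gene, so they do not separate its transcripts. Genes on the opposite strand share 93 bases with *Gata6* and 106 with *Runx1*.

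None of the 8 factors passed the test of the difference between the libraries labelled GOAT KO and those labelled WT. The study called genes whose log2 fold change exceeded 0.5 in size at an unadjusted p under 0.05. By this rule edgeR called 0 of 8, against 1.67% of all 16601 genes tested. At an unadjusted p under 0.05 alone the count was also 0 of 8 (background 4.62%), and at an adjusted p under 0.05 it was 0 of 8 (background 0.0241%). DESeq2 and limma-voom gave 0 of 8 for each of these counts too. The study's wider rule for pathway analysis, a log2 fold change over 0.3 in size at an unadjusted p under 0.05, also took 0 of 8 (background 2.85%). The groups overlapped for all 8 genes, while 2.92% of all genes did not overlap. The median log2 fold change of the 8 was -0.07, with 2 above 0 and 6 below, beside -0.0003 over all genes. The 95% intervals of the 8 log2 fold changes differed in width, from -0.07 to 0.34 for *Nr5a2* to -0.58 to 0.49 for *Nr0b1*, so the data bound the change of the former more tightly. In whole ovary, fewer cells of a type and less RNA per cell cannot be told apart.

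*Foxl2* was measured at 54.5, 50.4, 69.7 and 44.0 CPM in the libraries labelled WT 1118 to 1121 and at 65.9, 38.7, 36.7 and 52.5 CPM in GOAT KO 1139, 1140, 1141 and 1146. The highest value of each group was that of WT 1120 and of GOAT KO 1139, and the groups overlapped. Its log2 fold change was -0.17 (SE 0.19, 95% interval -0.59 to 0.24, edgeR adjusted p = 0.983).

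*Runx1*, which shares many fetal targets with *Foxl2*, was at 87.6, 84.8, 61.2 and 71.6 CPM in the libraries labelled WT and at 80.6, 73.5, 63.1 and 67.3 in those labelled GOAT KO. WT 1120 was the lowest of all 8. The log2 fold change was -0.10 (SE 0.12, interval -0.36 to 0.15, edgeR adjusted p = 0.983). In the 6 libraries it was -0.26 (SE 0.09, interval -0.45 to -0.07, edgeR adjusted p = 0.439), with overlapping groups.

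*Wt1* was at 221.7, 180.2, 123.7 and 171.8 CPM in the libraries labelled WT and at 147.8, 161.6, 147.7 and 145.7 in those labelled GOAT KO. WT 1120 lay below and the other 3 WT libraries lay above all 4 GOAT KO libraries, so the mean was 174.3 ± 40.2 CPM in WT and 150.7 ± 7.34 in GOAT KO (SD, n = 4 each). The log2 fold change was -0.21 (SE 0.14, interval -0.51 to 0.09, edgeR adjusted p = 0.983). Without WT 1120 and GOAT KO 1139 the groups no longer overlapped and the log2 fold change was -0.33 (SE 0.09, interval -0.54 to -0.13, edgeR adjusted p = 0.373). A single library decided this: leaving out WT 1120 alone gave -0.35 and an unadjusted p under 0.05, which all 8 libraries did not give, while leaving out WT 1118 gave -0.07.

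Among the 6 libraries, *Wt1* and *Runx1* were thus 2 of 8 factors with an unadjusted edgeR p under 0.05 (background 9.46% of 16641 genes), and *Wt1* was 1 of 8 whose groups did not overlap (background 15.7%). *Wt1*, lower in the libraries labelled GOAT KO, was also 1 of 8 past the wider rule with a log2 fold change over 0.3 (background 4.77%). By the stricter rule 0 of 8 were called there (background 2.39%), and 0 of 8 passed an adjusted p under 0.05 (background 0.12%).

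*Nr5a1*, the activator of most steroidogenic enzyme genes, was at 215.3, 208.0, 253.0 and 230.9 CPM in WT and at 184.0, 201.7, 209.7 and 255.6 in GOAT KO. The lowest and the highest of the 8 libraries were both labelled GOAT KO. Its log2 fold change of -0.09 (SE 0.10, interval -0.31 to 0.13, edgeR adjusted p = 0.983) turned to 0.03 in the 6 libraries.

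*Nr5a2*, which granulosa cells need to ovulate, was at 823.9, 1035, 768.9 and 936.6 CPM in WT and at 894.4, 1010, 1020 and 982.4 in GOAT KO. It was the steadiest of the 8, with a coefficient of variation of 10.5% over all libraries, and both extremes were WT libraries. The log2 fold change was 0.13 (SE 0.09, interval -0.07 to 0.34, edgeR adjusted p = 0.983).

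*Gata4* was at 261.9, 231.1, 358.4 and 226.0 CPM in WT and at 338.8, 220.8, 224.1 and 252.7 in GOAT KO, and its close relative *Gata6* was at 104.5, 95.2, 119.9 and 83.5 CPM in WT and at 124.6, 97.1, 98.1 and 91.3 in GOAT KO. In both genes WT 1120 and GOAT KO 1139 held the top places, and the remaining 6 libraries lay in a narrow band that both groups shared. The log2 fold change was -0.06 for *Gata4* (SE 0.17, interval -0.42 to 0.31, edgeR adjusted p = 0.986) and 0.03 for *Gata6* (SE 0.12, interval -0.24 to 0.29, edgeR adjusted p = 0.990).

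*Nr0b1*, the repressor, was at 23.1, 28.2, 11.9 and 20.6 CPM in WT and at 13.4, 21.8, 24.8 and 20.98 in GOAT KO. Here WT 1120 and GOAT KO 1139 were the lowest, and *Nr0b1* had the widest spread of the 8 genes, a coefficient of variation of 26.7%. The log2 fold change was -0.05 (SE 0.24, interval -0.58 to 0.49, edgeR adjusted p = 0.990).

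**Figure D2:**
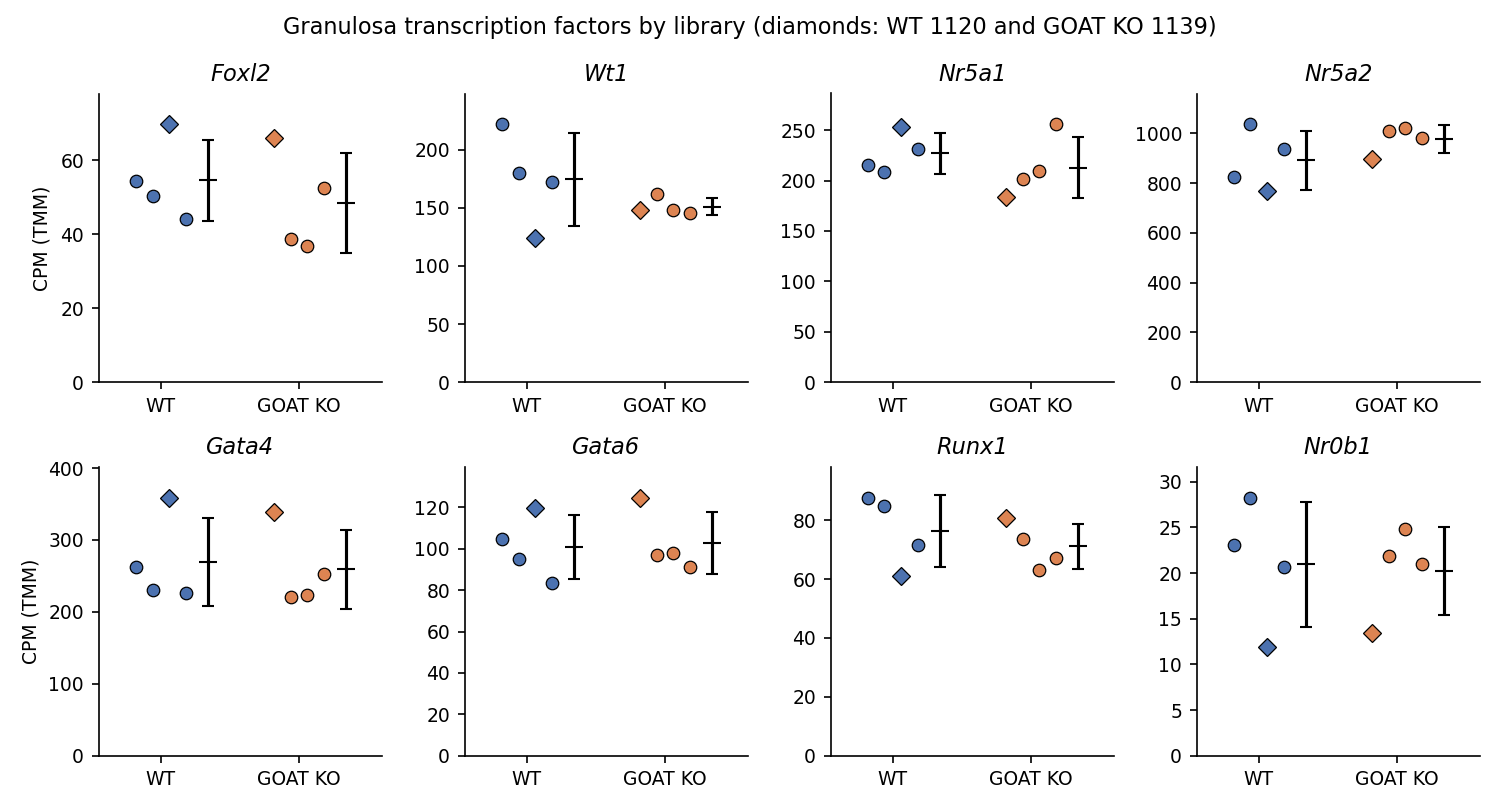
CPM of each factor, 1 panel a gene with its axis from 0, in the 4 libraries labelled WT (blue) and the 4 labelled GOAT KO (orange), with the mean and SD of each group beside the points. The groups overlap in all 8 panels, and the diamonds of WT 1120 and GOAT KO 1139 are the top values of *Gata4* and *Gata6* and the lowest of *Nr0b1*.

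**Figure D3:**
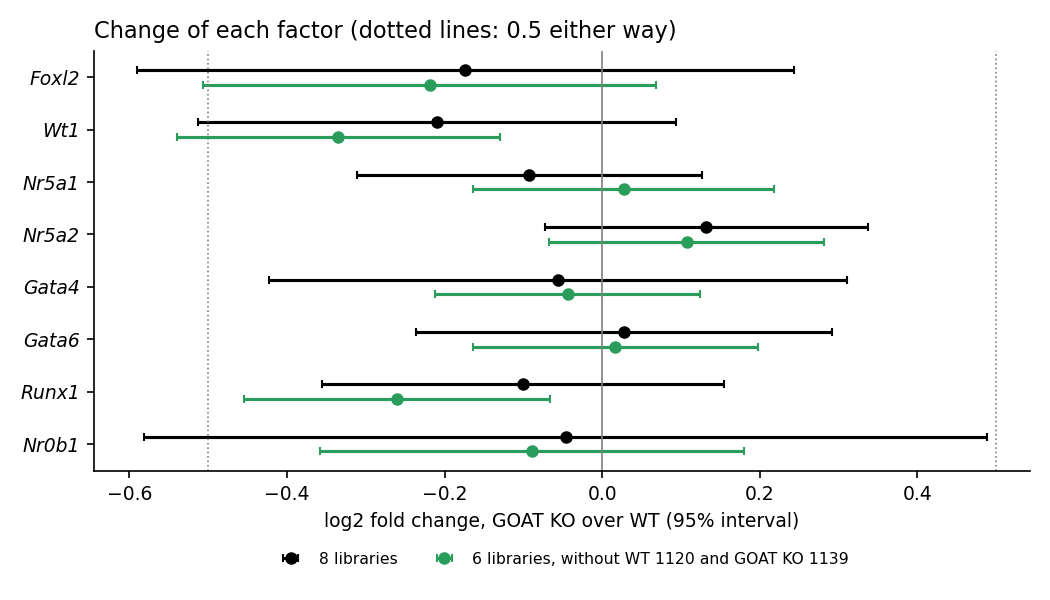
Log2 fold change of each factor, libraries labelled GOAT KO over those labelled WT, with 95% intervals, for all 8 libraries (black) and for the 6 without WT 1120 and GOAT KO 1139 (green). All 8 black intervals cross 0, and in green those of *Wt1* (-0.54 to -0.13) and *Runx1* (-0.45 to -0.07) do not.

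WT 1120 and GOAT KO 1139 thus shared a pattern that did not follow the labels, with high *Foxl2*, *Gata4* and *Gata6* and low *Nr0b1*. Other genes set these 2 libraries apart as well. *Cyp17a1*, the androgen-making enzyme of theca cells, was at 355.0 CPM in WT 1120 and 600.8 in GOAT KO 1139, against 42.4 to 137.7 elsewhere. *Cyp19a1*, the aromatase of granulosa cells, was at 65.0 and 45.2 CPM in these libraries and at 5.06 to 31.6 in the other 6. Whether this state has a part in the values of the factors was not tested.

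Levels of the factors were then related to one another across libraries, as log2 CPM, for all 28 pairs. Where *Gata4* enters, WT 1120 and GOAT KO 1139 form a cluster of their own, so the correlation is given within the other 6 libraries. *Foxl2* and *Gata4* varied together there (Pearson r = 0.852, exact permutation p = 0.0375, Spearman rho = 0.943, exact permutation p = 0.0167), and r was 0.884 for the deviations from the group means. After adjustment over the 28 pairs these permutation p-values were 0.525 and 0.467. *Gata4* and *Gata6* gave r = 0.358 and rho = 0.0857 in the 6 libraries (exact permutation p = 0.490 and 0.919). *Gata4* and *Nr0b1* gave r = -0.135 and rho = 0.0286 (exact permutation p = 0.814 and 1, the latter for rho).

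*Wt1* and *Runx1* formed no separate clusters, and over all 8 libraries they gave r = 0.813 (exact permutation p = 0.0109, adjusted 0.0927) and rho = 0.881 (exact permutation p = 0.00724, adjusted 0.101). Without WT 1118 and WT 1120, the libraries farthest from the median of *Wt1*, r was 0.566, so the strength of the relation rested in part on these. It was 0.902 in the 6 libraries without WT 1120 and GOAT KO 1139 (exact permutation p = 0.0125, adjusted 0.350), where r was 0.756 for the deviations from the group means. All pairs share the same libraries and their scaling.

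**Figure D4:**
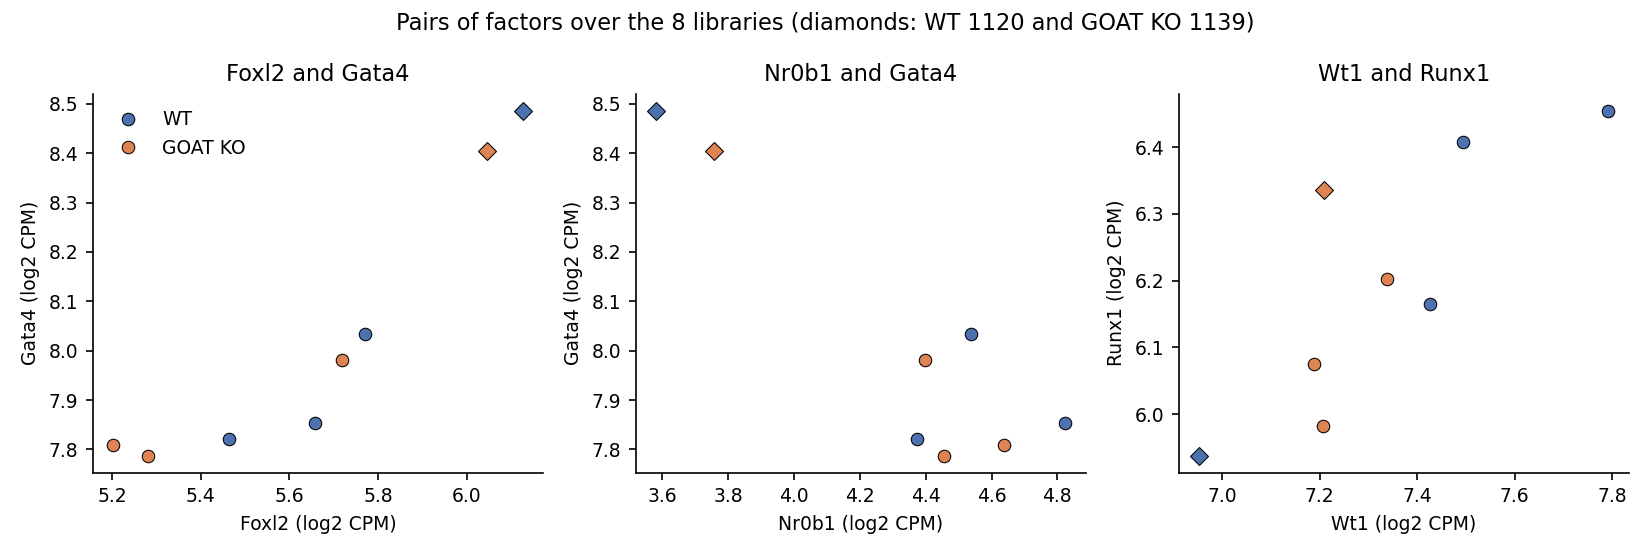
Log2 CPM of *Foxl2* and *Gata4*, of *Nr0b1* and *Gata4*, and of *Wt1* and *Runx1*, 1 point a library, blue for WT, orange for GOAT KO, with diamonds for WT 1120 and GOAT KO 1139. In the first 2 panels the diamonds lie far from the other 6 points, and in the panel of *Wt1* and *Runx1* the points form a single rising band.

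By the same measure over 8 libraries, the tested genes most like each factor outside the 8 were *Hcn2* for *Foxl2* (r = 0.968, and 0.947 in the 6 libraries), *Lgr5* for *Wt1* (0.984 and 0.983), *Hsd17b2* for *Nr5a1* (0.956 and 0.899), *Gprasp1* for *Nr5a2* (0.984 and 0.994) and *Casz1* for *Runx1* (0.952 and 0.981). For *Gata4*, *Gata6* and *Nr0b1* the genes were picked over the 8 libraries too, but r is given in the 6 alone. It was 0.951 for *Ptprn2* and 0.871 for *Cbfa2t3* with *Gata4*, 0.966 for *Csk* with *Gata6* and 0.906 for *Sec31b* with *Nr0b1*. Each gene was picked as the highest of all genes tested, or for *Cbfa2t3* the next, so these are a description.

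Reads across splice junctions, counted apart from the gene counts, show which transcripts of the factors were made. The 8 genes held 18939 junction reads on 87 junctions in all, of which 99.1% fell on the 48 junctions annotated in GENCODE. *Foxl2* has a single exon and none. *Wt1* had 3256 junction reads, *Nr5a1* 2906, *Nr5a2* 8066, *Gata4* 2479, *Gata6* 1809, *Runx1* 340 and *Nr0b1* 83. The only gene with alternative junctions deep enough to compare in every library was *Wt1*, with 3 such choices.

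*Wt1* makes variants that differ in function. At the end of exon 9 the gene has a pair of splice donors 9 bases apart, at 105170009 and 105170018 on chromosome 2, both joined to the acceptor at 105172223. Use of the second donor inserts the amino acids lysine, threonine and serine (KTS) between the third and the fourth zinc finger, and the -KTS form is the better known DNA-binding transcription factor. A second choice is exon 5, of 51 bases (105144142 to 105144192), which is included or skipped. The joined exons are given from GENCODE M21 transcripts, with capitals for the bases that only 1 of the forms carries:
Wt1 +KTS: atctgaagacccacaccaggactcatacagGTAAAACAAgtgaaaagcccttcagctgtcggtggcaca
Wt1 -KTS: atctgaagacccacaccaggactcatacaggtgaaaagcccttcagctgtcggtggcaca
Wt1 with exon 5: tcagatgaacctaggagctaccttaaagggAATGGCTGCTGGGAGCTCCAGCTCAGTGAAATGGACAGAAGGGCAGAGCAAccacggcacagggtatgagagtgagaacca

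The +KTS donor carried most of these reads in every library, 397 of 477 (83.2%) in all. It held 52 of 52 reads in WT 1118, 49 of 52 in WT 1119, 35 of 35 in WT 1120 and 58 of 74 in WT 1121. In the libraries labelled GOAT KO it held 48 of 65 (1139), 62 of 65 (1140), 61 of 84 (1141) and 32 of 50 (1146). WT 1121 lay with the lower GOAT KO libraries and GOAT KO 1140 with the higher WT libraries, so the groups overlapped. The share was 93.2% ± 10.2 in WT and 76.5% ± 13.4 in GOAT KO (SD, n = 4 each), a difference of -16.7 percentage points that did not pass a two-sided exact permutation test (p = 0.0857, adjusted over the 3 choices 0.257).

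For the extremes of each group, the exact 95% binomial interval was 93.2% to 100% in WT 1118 and 67.3% to 87.1% in WT 1121. It was 87.1% to 99.0% in GOAT KO 1140 and 49.2% to 77.1% in GOAT KO 1146. These intervals cover counting error only. The -KTS junction was listed with 0 reads in WT 1118 and WT 1120, where the exact 95% interval of the -KTS share reaches up to 6.85% and 10.003%, and with 16 to 23 reads in WT 1121 and 3 of the GOAT KO libraries. Among the 36 junctions of the 8 genes with at least 70 reads in all, 3 had a library at 0. These were the -KTS junction of *Wt1* and 1 each in *Gata4* and *Runx1*. Just under this cut, an unannotated *Nr5a2* junction of 69 reads had none in GOAT KO 1140 and GOAT KO 1146. In the antisense gene *Foxl2os*, an unannotated junction of 116 reads had none in WT 1119, WT 1121 and GOAT KO 1139. Whether the aligner missed junctions in some libraries was not tested.

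Exon 5 of *Wt1* was included at 31.6%, 37.8%, 41.6% and 32.8% in the libraries labelled WT and at 32.7%, 37.4%, 41.8% and 29.6% in those labelled GOAT KO. Both groups covered almost the same range, with means of 36.0% ± 4.60 and 35.4% ± 5.35 (SD, n = 4 each). The difference was -0.593 percentage points (two-sided exact permutation p = 0.857). Inclusion is the mean of the reads over both flanking junctions, divided by that mean plus the reads that skip the exon.

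**Figure D5:**
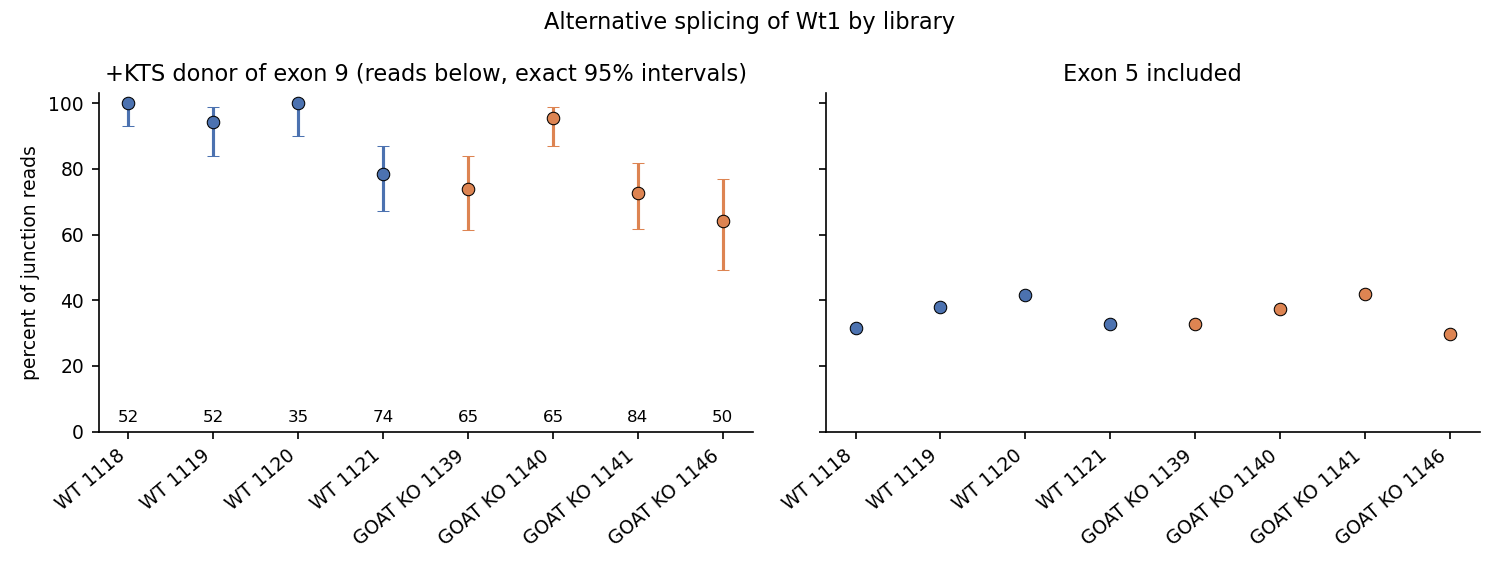
Percent of *Wt1* junction reads in each library that used the +KTS donor of exon 9 (left, with exact 95% binomial intervals and the number of reads under each point) and that included exon 5 (right), blue for WT and orange for GOAT KO. The +KTS share runs from 64.0% to 100% with overlapping groups, and exon 5 stays between 29.6% and 41.8%.

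First exons of the factors were seen less deeply. *Runx1* has a distal start at 92826074 and a proximal start at 92697329 on chromosome 16, each leading to its own RUNX1 isoform. No library had a junction read that reached the annotated distal exons, 0 of the 340 junction reads of the gene. Most of these reads lie too far downstream to tell the starts apart. The exon that both starts share was joined to the next by 24 reads, across the intron from 92689133 to 92695483, so a count of 0 at the distal exons allows up to 12.5% as many reads as these. A further 2 reads joined the shared exon to an unannotated site at 92698382, between the starts. *Gata4* used both annotated first exons, with 84 reads across the intron from 63241646 to 63245150 and 42 across that from 63241646 to 63271583 on chromosome 14. In *Nr5a2*, an unannotated junction from 136948860 to 136949384 on chromosome 1 carried 69 reads, at 16, 14, 2 and 11 in WT and 9, 0, 17 and 0 in GOAT KO. The annotated junction from the same exon to 136952101 carried 18 reads, so most junction reads counted into this exon came from an exon end that GENCODE M21 does not list. The junction that leaves this exon, from 136945078 to 136948721, carried 537 reads, so the reads into it cover a small part of its use. Of the 8 libraries, GOAT KO 1140 and GOAT KO 1146 had none of the 69.

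RefSeq promoter windows of GRCm38, from 250 bases before to 50 after a start, were given for 4 of the 8 genes and hold 6 starts. They were searched on both strands for the letters AGGTCA, the core motif that nuclear receptors such as NR5A1 read, which 2 of the 6 windows and 16.3% of all 32851 windows held. The GATA letters AGATAA stood in 1 of the 6 (11.2% of all), the RUNX letters TGTGGT in 2 (16.8%) and the forkhead letters TAAACA in 1 (13.4%). A match is a description of letters and no binding site. The *Nr0b1* window is shown because this gene is a known target of NR5A1 and varied most here, at chrX:86191525-86191763 on the plus strand, up to the first annotated exon, with its AGGTCA in capitals, 126 bases before the RefSeq start:
Nr0b1 promoter: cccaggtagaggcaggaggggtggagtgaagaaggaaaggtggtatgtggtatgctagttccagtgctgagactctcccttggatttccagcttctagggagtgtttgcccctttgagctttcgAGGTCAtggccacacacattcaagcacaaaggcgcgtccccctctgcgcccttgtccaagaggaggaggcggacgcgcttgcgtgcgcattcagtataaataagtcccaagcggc

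Across libraries the level of *Nr0b1* showed no relation to that of *Nr5a1* that passed a test (r = -0.141, rho = -0.262 over 8 libraries, exact permutation p = 0.742 and 0.536), and the sign turned with the libraries used, since r was 0.593 without the pair farthest from the median of *Nr5a1* and -0.568 without WT 1120 and GOAT KO 1139.

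A pair of genes read from the opposite strand lie beside the factors. *Foxl2os* overlaps *Foxl2* by 12 bases and was at 122.1, 134.6, 196.7 and 136.2 CPM in WT and 170.8, 124.2, 151.1 and 152.3 in GOAT KO. The groups overlapped, with a log2 fold change of 0.02 (SE 0.14, edgeR adjusted p = 0.992). *Wt1os*, which does not overlap *Wt1*, was at 9.82 to 13.0 CPM in WT and 9.82 to 12.7 in GOAT KO, with a log2 fold change of -0.10 (SE 0.12, edgeR adjusted p = 0.983). Since the use of strand in counting is not stated, reads in the shared bases of *Foxl2* and *Foxl2os* cannot be told apart.

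Genes that work with the factors were counted by lists, and again nothing passed an adjusted p under 0.05 in any list. Over all genes tested, 1.67% were called and 4.62% had an unadjusted p under 0.05 in the 8 libraries. These shares were 2.39% and 9.46% in the 6 libraries. Of 16 binding partners and co-regulators, 0 were called by the study's rule by edgeR (0 also at an unadjusted p under 0.05), with a median log2 fold change of -0.003. The list includes *Zfpm1*, a FOG cofactor of the GATA factors (-0.20, SE 0.14), and *Esr2*, the oestrogen receptor of granulosa cells (0.11, SE 0.16). *Zfpm1* was among those lower at an unadjusted p under 0.05 in the 6 libraries, where 0 of the 16 were called. *Cbfa2t3*, which encodes a corepressor, was at 43.6 CPM in WT 1120 and 37.4 in GOAT KO 1139 and at 11.2 to 19.3 in the other 6. Of 11 tested gonad primordium factors, 0 were called by edgeR and 0 had an unadjusted p under 0.05, with a median of -0.06. *Lhx9*, a LIM factor that acts with WT1 on *Nr5a1*, was the lowest of these at -0.22 (SE 0.19). *Lhx9*, at -0.28, and the growth factor receptor gene *Igf1r*, at -0.24, had in the 6 libraries an unadjusted p under 0.05 (edgeR adjusted p = 0.494 and 0.323).

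The paralogues were far lower than the factors themselves. Their sum was 11.7 to 16.4 CPM per library over 8 genes, against 1767 to 1913 CPM for the 8 factors. Of 6 tested, 1 was called lower in the libraries labelled GOAT KO, *Gata1*, a blood and Sertoli cell factor. It was at 3.35, 2.83, 3.46 and 2.94 CPM in WT and 1.62, 2.02, 2.51 and 2.67 in GOAT KO, without overlap (log2 fold change -0.51, SE 0.18, edgeR adjusted p = 0.983). In the 6 libraries it was -0.33 and no longer called (edgeR adjusted p = 0.590). All 6 paralogues tested were below 0, with a median of -0.09.

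The female pathway beside *Foxl2* gave 0 of 14 called, with a median of -0.06. *Fst*, an activin-binding protein that FOXL2 is known to induce, was over all 8 libraries the 1 gene of this list with an unadjusted p under 0.05, at a log2 fold change of 0.36 (SE 0.13, edgeR adjusted p = 0.983). *Wnt4*, a signal of the female pathway, was at -0.39 (SE 0.23, edgeR adjusted p = 0.983). In the 6 libraries *Irx3*, a homeobox gene of pre-granulosa cells, was called lower (-0.54, edgeR adjusted p = 0.361). There 5 of the 14 had an unadjusted p under 0.05, beside 9.46% of all genes. *Fst* (0.34) and *Kitl* (0.14) were higher and *Irx3*, *Lgr5* (-0.32) and *Wnt4* (-0.30) lower. Of the Sertoli and testis list, 0 of 11 genes tested were called, with a median of 0.03. Not all of its genes were low, since *Dhh*, a hedgehog ligand that granulosa cells also make, was at 38.9 to 68.6 CPM. *Sox9*, the testis factor that FOXL2 represses, was at 5.08, 4.67, 3.62 and 3.65 CPM in WT and 4.13, 3.36, 2.51 and 2.61 in GOAT KO. The groups overlapped, and *Sox9* differed by -0.43 on the log2 scale (SE 0.20, edgeR adjusted p = 0.983), the 1 gene of this list with an unadjusted p under 0.05. In the 6 libraries, at -0.66 (edgeR adjusted p = 0.406), it was called lower. *Dmrt1*, another testis factor, had 0 or 1 count per library and was not tested.

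The list of NR5A and GATA targets had a median log2 fold change of 0.22, with 15 of 17 tested above 0, beside 49.9% of all genes above 0. Beside steroidogenic genes it holds hormone, inhibin subunit and receptor genes, among them *Inha*, *Inhba*, *Amh*, *Amhr2*, *Fshr*, *Lhcgr* and *Prlr*. Of the 17, 1 was called (*Inhba*), and 3 had an unadjusted p under 0.05 (*Fshr*, *Hsd17b1* and *Inhba*). At that unadjusted p 10 were higher and 1 lower in the 6 libraries, where 9.46% of all genes had such a p. The difference between the list and all genes was not tested. *Inhba*, which encodes a subunit of activin and inhibin, was at 49.6, 70.3, 179.9 and 93.9 CPM in WT and 210.7, 103.5, 200.6 and 245.6 in GOAT KO. WT 1120 lay among the GOAT KO libraries and the log2 fold change was 0.95 (SE 0.36, edgeR adjusted p = 0.983). In the 6 libraries 3 of these genes were called higher, beside 2.39% of all genes called there. These were *Inhba* at 1.36 (edgeR adjusted p = 0.198), *Fshr*, the FSH receptor, at 0.68 (edgeR adjusted p = 0.144) and *Cyp19a1* at 1.39 (edgeR adjusted p = 0.422). Over all 8 libraries *Fshr* was at 0.47 (SE 0.16, edgeR adjusted p = 0.983) and *Cyp19a1* at 0.22 (interval -1.47 to 1.92, edgeR adjusted p = 0.986). The median of the 8 factors in the 6 libraries was -0.07. *Star*, which carries cholesterol into mitochondria, was at 233.5 CPM in GOAT KO 1139 and at 8.14 to 31.9 elsewhere, and its value of 1.89 in 8 libraries (SE 0.95) was -0.10 in the 6.

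Markers of the cell types in the ovary were present. All 14 granulosa markers passed the filter, and their summed level was 11110 to 13110 CPM in WT and 12860 to 13540 in GOAT KO, with 0 of 14 called and a median of 0.11. At an unadjusted p under 0.05 there were 3, *Fshr*, *Fst* and *Hsd17b1*, an enzyme of oestrogen synthesis, all higher in the libraries labelled GOAT KO. In the 6 libraries 2 of the 14 were called higher, *Fshr* and the inhibin subunit *Inhbb* (0.57, edgeR adjusted p = 0.278), beside 2.39% of all genes called. At an unadjusted p under 0.05 there were 6 higher and 1 lower in these 6 libraries, beside 9.46% of all genes. *Amh*, made by granulosa cells of growing follicles, was at -0.21 (SE 0.11, edgeR adjusted p = 0.983). Theca and steroidogenic markers (0 of 8 called, median 0.19), oocyte markers (0 of 10, median 0.14), endothelial markers (0 of 7, median -0.06), surface epithelium (0 of 9, median -0.05) and stroma (0 of 8, median 0.09) were called by the study's rule in no case. Of the stromal genes, the collagens *Col1a1*, at 0.36 (SE 0.09), and *Col1a2*, at 0.28 (SE 0.08), had an unadjusted p under 0.05. So had the oocyte genes *Figla* (0.46) and *Nlrp5* (0.19), both higher, with 9 of 10 oocyte markers above 0, and the keratin *Krt7* of the surface epithelium (-0.35), which was lower. *Figla* and *Nlrp5* no longer had an unadjusted p under 0.05 in the 6 libraries, whereas the oocyte gene *Ooep* (0.27) did. Both collagens and *Krt7* kept it there, and *Krt19* and *Lgr5* of the surface epithelium (median -0.18 there) and *Cdh5* of the endothelium were lower too. At that unadjusted p 3 theca genes were higher and 1 lower. The lists share genes, so their counts are not separate. *Cyp11a1* and *Hsd3b1* are theca genes and NR5A and GATA targets. *Fshr*, *Hsd17b1*, *Amh* and *Amhr2* are granulosa markers and such targets, and *Fst* and *Kitl* stand in the granulosa and female lists.

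Markers of other cell types were examined too. All 7 leukocyte markers tested were below 0, with a median of -0.25, and 1, *Lyz2*, was called lower at -0.52 (SE 0.13, edgeR adjusted p = 0.983). The summed leukocyte level was 91.6 to 118.5 CPM in WT and 69.8 to 94.3 in GOAT KO, with overlap. For *Lyz2* (52.3 to 64.5 CPM in WT, 31.4 to 50.3 in GOAT KO) and the macrophage gene *Adgre1* (6.19 to 7.25 and 4.85 to 5.58) the groups did not overlap. *Adgre1* was at -0.36 with an unadjusted p under 0.05 (edgeR adjusted p = 0.983), and both genes kept such a p in the 6 libraries. All 4 adipose markers tested were called higher, but their sum was 203.2 CPM in GOAT KO 1139, against 7.37 to 16.6 in WT and 13.9 to 18.2 in the other GOAT KO libraries, and 1 of them, *Plin1*, was called in the 6 libraries. Adrenal cortex markers, a tissue that shares *Nr5a1*, *Nr0b1* and *Gata6* with the ovary, were near 0, at sums of 0.167 to 5.44 CPM, with 1 of 5 tested, and podocyte and kidney markers, which share *Wt1*, were at 3.40 to 7.83 CPM with 1 of 4 tested. The part of any of these in the values of the 8 factors was not tested.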

How the data were processed

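The authors isolated total RNA from ovaries, sequenced 50-base single reads, aligned them to mm10 (GRCm38) with TopHat2 2.0.14, assembled transcripts with StringTie 1.0.4 (not used here) and deposited raw counts per gene symbol and junction read counts per library. The counting tool and use of strand are not given in the sources used here. Deposited percent values of reads on a single feature were 60.70% to 62.64%. Gene counts were tested in edgeR 4.0.16 (R 4.3.3) after TMM scaling and filterByExpr (minimum count 10, total 15), by the quasi-likelihood test with Benjamini-Hochberg adjustment over all genes tested; each SE was taken from the log2 fold change and the F statistic. On simulated data, recovery of known changes was checked. Positions, junctions and exon lengths came from GENCODE M21, a later release of the same build than the authors used. Splice choices required 10 reads in every library, and the second junction 5% of reads. Single values were compared by exact permutation, for which 4 against 4 allows no two-sided p under 0.0286.

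The 8 factors, the gene lists and the 6-library set were chosen with earlier results of these data known, and no p was adjusted over the factors. Genes named outside the 8 were drawn, for each list, from those with the 2 largest and 2 smallest log2 fold changes, those past the study's rule and the 2 most abundant, and those most like each factor; *Cyp19a1*, *Hsd17b1*, *Dmrt1* and *Igf1r* were named after their values were seen. The inclusion of *Wt1* exon 5, the promoter search and the rule of 0.3 were added after seeing the data. Libraries of a group differed by more than sampling noise (chi-square per gene 4.22 to 27.1), so each counts as 1 replicate. Alternatives were RLE size factors, DESeq2 1.42.0, limma-voom (limma 3.58.1), no filter, the 6 libraries and leaving out each library.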

Additional observations from a re-analysis of the deposited data

Results flagged for a closer look

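In groups of 4 libraries, 58 groups of values were checked for a library far from the other 3, of which chance flags about 1 in 20, and 5 were found. *Wt1* was at 161.6 CPM in GOAT KO 1140, against 145.7 to 147.8 in the other libraries labelled GOAT KO, a gap that is small beside the spread of the libraries labelled WT. *Mboat4* was at 0.164 CPM in WT 1121, which is 3 counts against 1 in each other WT library. GOAT KO 1139 stood above the other GOAT KO libraries in the summed level of surface epithelium markers (206.3 CPM against 169.7 to 174.9), of adrenal cortex markers (5.44 against 0.672 to 1.40) and of adipose markers (203.2 against 13.9 to 18.2).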

How the results depend on the processing

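No paired analysis was possible because the libraries carry animal numbers that the groups do not share. Over 13 alternatives, 0 of the 8 factors was called by the study's rule and 0 passed an adjusted p under 0.05, and *Foxl2*, *Wt1*, *Runx1* and *Nr5a2* kept their direction in all of them, though not their size. With a library left out they ran from -0.36 (without GOAT KO 1139) to -0.04 (without WT 1120) for *Foxl2*, -0.35 (without WT 1120) to -0.07 (without WT 1118) for *Wt1*, -0.20 (without WT 1120) to -0.03 (without WT 1118) for *Runx1* and 0.064 (without WT 1120) to 0.21 (without WT 1119) for *Nr5a2*. With 6 libraries, *Nr5a1* turned from -0.09 to 0.027, the number of factors with an unadjusted p under 0.05 was 2 in place of 0, the number past the wider rule of 0.3, which was added after seeing the data, was 1 in place of 0 (0 to 1 with a library left out), the inclusion of *Wt1* exon 5 differed by 2.18 points the other way, and the *Mboat4* difference of 0.323 CPM could not pass a test of 3 against 3 (exact permutation p = 0.1). When single libraries were left out, the number of factors with an unadjusted p under 0.05 was 0 to 1 (*Nr5a2* without WT 1119, *Wt1* without WT 1120, *Nr5a1* without GOAT KO 1146). The same changes gave log2 fold changes of -0.21 to 0.11 for *Gata4*, -0.078 to 0.118 for *Gata6* -0.25 to 0.13 for *Nr0b1* and -0.19 (without GOAT KO 1146) to -0.03 (without GOAT KO 1139) for *Nr5a1*, and an exon 5 difference of -2.74 to 1.32 points. The difference in +KTS share was -23.0 to -12.5 points over libraries left out, and -13.5 in the 6 (exact permutation p = 0.3). The number of listed genes called, 7, was 4 with DESeq2, 4 with limma-voom, 11 without a filter and 2 to 13 with a library left out (13 without WT 1120, 2 without WT 1118). Of the 8 places in the order of levels, 4 held with the longest transcript as length. The cause of these shifts was not tested. Depth limits the junction readouts, at 35 to 84 reads per library for the KTS choice.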
